A study of Mus musculus with 24 samples.

Results

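Cytoplasmic RNA was compared with total RNA in Mkrn3ox cells, a line of mouse GT1-7 cells that stably expresses Mkrn3 fused to green fluorescent protein (GFP-Mkrn3). GT1-7 is an immortalised hypothalamic neuronal line that secretes gonadotropin-releasing hormone. The comparison used 6 of the 24 libraries of the series, 3 of cytoplasmic and 3 of total RNA, and every gene row with enough counts. For reference, 6 libraries of unmodified GT1-7 cells (wt), again 3 of each kind, were set beside them. The remaining 12 libraries came from cells given a GFP or GFP-Mkrn3 plasmid, and only the 3 GFP inputs were used, to see how abundant neighbouring genes are. All cells carried the GT1-7 background, no treatment or time is given for the stable line, and the labels state neither the promoter of the fusion nor whether the line is 1 clone. Separate cultures are not named for the 3 libraries of any group, so the p-values measure only the spread between these libraries, which may be technical.

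Total RNA holds the RNA of the whole cell, including nuclear RNA and the cytoplasmic RNA itself. A transcript that stays in the nucleus, such as an architectural long non-coding RNA, an unspliced precursor or an mRNA with a retained intron, takes a smaller share of a cytoplasmic extract than of total RNA. An mRNA translated on free ribosomes is released with the cytosol. mRNAs of secreted and membrane proteins are translated on the endoplasmic reticulum, which is continuous with the outer nuclear envelope, and how much of it a cytoplasmic extract holds depends on the lysis. Mkrn3 itself codes for a makorin, one of a family of RING-type ubiquitin ligases that bind RNA through zinc fingers, and is known for its role in the timing of puberty.

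The libraries were made with CEL-seq2, which reads the 3' ends of polyadenylated RNA. They held 374386 to 465260 counts in Mkrn3ox cytoplasm and 513166 to 589792 in Mkrn3ox total RNA, over 8720 to 9367 and 10278 to 10471 rows with a count. Levels are given as CPM, the count scaled to a fixed library total with edgeR's TMM factors, so a value is a share of the RNA counted and not an amount per cell. Less RNA of a kind in every cell and fewer cells that hold it cannot be told apart. Within a group, log2 CPM of the Mkrn3ox libraries correlated across genes with Pearson's r of 0.864 to 0.887. Of 18 GnRH neuron markers 11 had a count in these 6 libraries, with a summed level of 776 to 962 CPM in cytoplasm and 485 to 728 CPM in total RNA, while Chga, Chgb, Nefl, Nefm, Dlx1, Dlx2 and Six3 were at 0. Of 14 astrocyte and oligodendrocyte markers 5 had a count (47.8 to 96.7 CPM in cytoplasm, 57.6 to 96.4 in total RNA), with Gfap, Aqp4, Olig2, Sox10 and Mog at 0. Of 16 fibroblast, endothelial and immune markers 8 had a count (707 to 739 CPM in cytoplasm, 845 to 968 in total RNA), with Pecam1, Cdh5 and Ptprc at 0 and most of the sum in Csf1r and Col1a2. The part of these markers in the results was not tested. The Mkrn3 row had 1, 0 and 5 counts in the cytoplasmic libraries and 0 in the 3 total libraries. It does not check the line, because a 3' end read counts only if the fusion carries the 3' end of the annotated gene, which the labels do not state.

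Many more rows were lower than higher in the cytoplasm. Of 5033 rows tested 189 (3.76%) were lower in cytoplasmic than in total RNA and 39 (0.775%) were higher, at an adjusted p under 0.05 in edgeR's quasi-likelihood test with Benjamini-Hochberg adjustment over all rows. The lower rows had a median log2 fold change of −2.83, 133 of them changed by 4-fold or more, and 27 had no count in any cytoplasmic library. The higher rows had a median of 1.35, and 12 changed by 4-fold or more. A further 670 rows had an unadjusted p under 0.05 without passing the adjusted threshold. All 3 cytoplasmic values lay below all 3 total values in each of the 189 lower rows, where 14.6% of the tested rows had that order. They lay above in 38 of the 39 higher rows (11% of the tested rows), the exception being Ptpn11, a tyrosine phosphatase gene. In all, 228 rows (4.53%) were called, and the median over all tested rows was 0.00. Leaving out each Mkrn3ox library in turn gave 117 to 136 lower and 7 to 23 higher rows. The count of higher rows fell by more than 1.5 times in all 6 omissions and was lowest, at 7, without total library 1. The count of lower rows fell that much without cytoplasmic library 1 (117), cytoplasmic library 2 (123) or total library 1 (118).

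**Figure D1:**
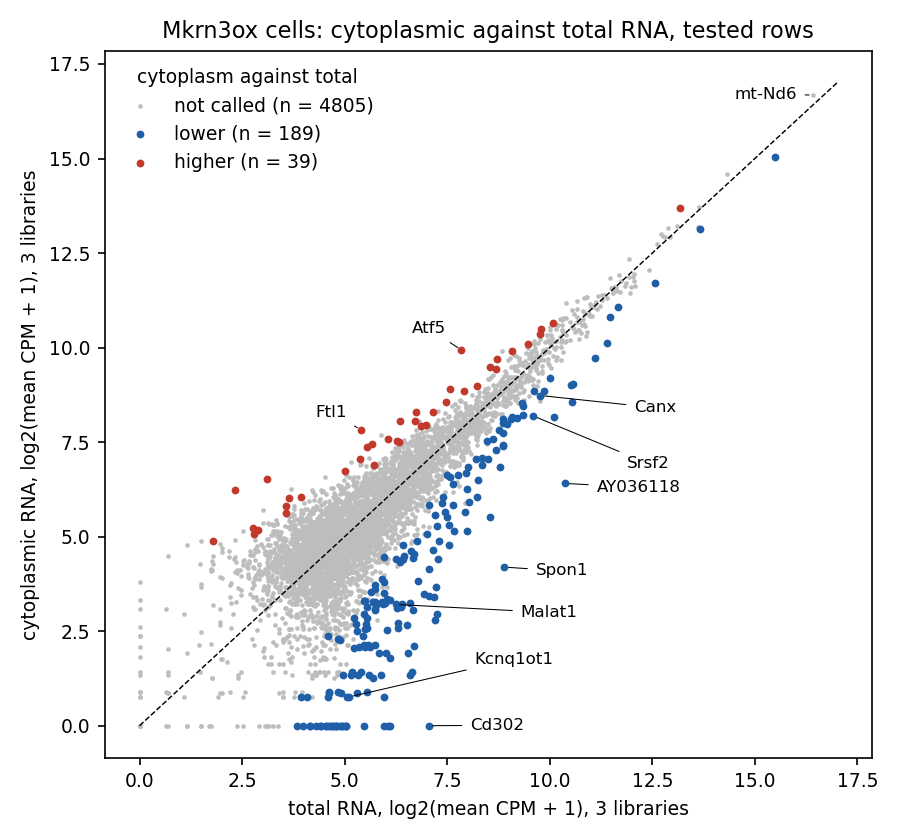
Mean level of each of the 5033 tested rows in the 3 total RNA libraries (x axis) and the 3 cytoplasmic libraries (y axis) of Mkrn3ox cells, both as log2(CPM + 1), with the dashed line at equal levels. The 189 rows called lower (blue) lie far below the line, with 27 of them on the bottom axis at 0 in the cytoplasm, and the 39 called higher (red) lie closer to it.

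The share of rows called lower differed among RNA classes, a description with no test of the shares called. Among 4525 protein-coding rows 117 (2.59%) were lower in the cytoplasm and 36 (0.796%) higher, with a median of 0.03. Among 349 rows annotated as long non-coding RNA (lncRNA) 41 (11.7%) were lower and 2 higher, with a median of −0.24. Of 82 rows of the class TEC, unsupported gene models that the annotation keeps for experimental follow-up, 18 (22%) were lower and none higher, with a median of −0.78. Together the 508 rows of all types other than protein-coding held 72 lower (14.2%) and 3 higher rows, 7 of the lower ones among 45 rows with no gene type. Omitting each Mkrn3ox library in turn left 26 to 31 lncRNA and 12 to 14 TEC rows lower. As shares of the non-mitochondrial counts, pseudogenes of all kinds took 0.210%, 0.210% and 0.178% in the cytoplasmic libraries and 0.434%, 0.412% and 0.409% in total RNA, a ratio of 0.476. TEC rows took 1.16 ± 0.0451% against 1.49 ± 0.0717% (SD, n = 3 each), lncRNA 8.81 ± 0.121% against 9.26 ± 0.0871%, and protein-coding rows 88.7 ± 0.149% against 87.6 ± 0.0455%. Each of these 4 shares separated the groups completely, for which an exact two-sided permutation test of 3 against 3 libraries gives its smallest p of 0.1 (0.125 adjusted over 5 shares). Rows with no gene type did not separate (1.02% against 1.04%, exact permutation p = 0.5).

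**Figure D2:**
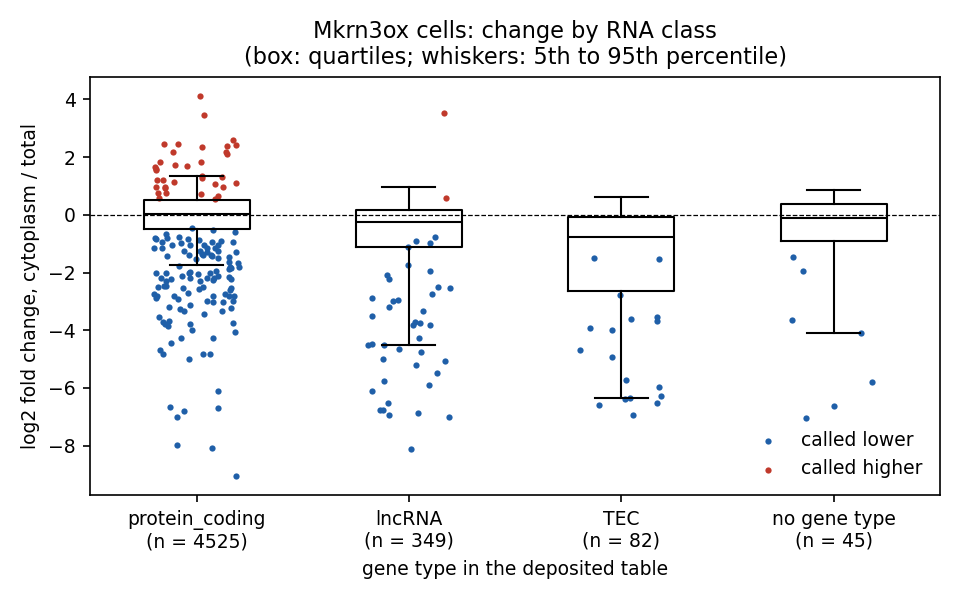
Log2 fold change of cytoplasmic over total RNA in Mkrn3ox cells for the tested rows of 4 gene types, with boxes at the quartiles, whiskers at the 5th and 95th percentiles and dots for called rows (sideways spread only separates them). The median falls from 0.03 in protein-coding rows to −0.24 in lncRNA and −0.78 in TEC rows, and the blue dots of rows called lower reach −6 and below in the first 3 types.

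The sources used here do not give the strand on which reads were counted, and a row can hold reads of a gene beside it, so a value here is that of the named row. CEL-seq2 keeps the strand, and counting on the opposite strand would give a row the reads of RNA from its other strand, which was not tested. Many of the named rows stood far from their level in the GFP inputs. Malat1 had 5780 CPM there against a mean of 74.7 in Mkrn3ox total RNA, Fn1 8910 against 67.3, Macf1 1210 against 48.7, Nrp1 510 against 28.6 and Cdh11 1630 against 146 CPM, while mt-Nd6 had 1420 against 88000 CPM. Rows named below had such gaps too, with Stt3a at 493 against 52.4, Cpd at 1260 against 217 and Itgb1 at 1560 against 394 CPM. Others ran the other way, with Grtp1 at 10.2 against 46400 and Mettl7b at 0 against 2180 CPM. Some were close, such as Litaf at 177 against 189 CPM. What the rows with a gap measure is in doubt to that extent, and the part of the gap in their results was not tested. Among the 144 lower rows that could be placed on GRCm38, 77 (53.5%) had a gene overlapping them or within 5 kb that was more abundant in the GFP inputs, against 27.4% of the 4690 placed tested rows. That neighbour lay on the opposite strand for 43 of the 77 and on the same strand for 4, with no strand given for the rest. Over all placed tested rows it was opposite in 717 and the same in 176 of 1287. Another gene enclosed 22 of the lower rows (15.3%, against 2.15%). In the GFP inputs 38.1% of the lower rows stood below 1 CPM, against 12.7% of all tested rows. Counting only the 3403 rows with no more abundant neighbour, 67 were lower and 31 higher. The excess of lower rows was smaller there than over all 5033 rows, with 189 lower and 39 higher. For the non-coding classes few such rows remain, 17 of the 349 lncRNA rows, of which 3 were lower, and 0 of the 82 TEC rows.

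Of the nuclear lncRNAs with a known role, Malat1, Kcnq1ot1 and Mir99ahg were lower in the cytoplasm. Of 25 listed RNAs with a row, 9 were tested, 3 were lower and none was higher (3.76% and 0.775% of all rows), with a median of −3.11 that was −0.59 when a mean of at least 20 counts was required. Malat1, an abundant RNA of nuclear speckles (chr19:5795690-5802672), stood at 15, 7.63 and 2.09 CPM in the cytoplasmic libraries and at 85.9, 88.4 and 49.9 CPM in total RNA. No cytoplasmic value came near a total value, and the log2 fold change was −3.19 (SE 0.61, adjusted p = 0.00306). Kcnq1ot1, an imprinted RNA transcribed antisense to Kcnq1 (chr7:143213111-143296547, within that gene), had no count in cytoplasmic libraries 1 and 2 and 2.09 CPM in library 3, against 23.8, 42.4 and 34.9 CPM in total RNA (−5.05, SE 1.01, adjusted p = 0.00469). Mir99ahg, the host RNA of a microRNA cluster, was at 0, 0 and 35.5 CPM against 137, 164 and 146 CPM (−3.52, SE 0.676, adjusted p = 0.00311). The highest cytoplasmic value still lay below every total library. Firre, a chromatin-associated RNA, had 2.49, 2.54 and 2.09 CPM against 25.6, 35 and 6.65 CPM, with a log2 fold change of −3.11 that missed the threshold (adjusted p = 0.0952). Tug1 showed 52.7 against 52.5 CPM (0.00). Xist, which silences an X chromosome, had 2, 4 and 0 counts in cytoplasm and none in total RNA, too few to set a direction (adjusted p = 0.0868). Neat1 (0 to 5 counts against 1 to 8) and Meg3 (0 to 1 counts) did not reach the filter. Malat1, Kcnq1ot1 and Mir99ahg kept their calls in all 6 omissions of a Mkrn3ox library.

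Hosts of small nucleolar RNAs, whose spliced transcripts are exported and decay quickly, were spread out. None of the 7 tested rows of this list was called, from Snhg12 at −2.67 to Snhg10 at 1.65, with Gas5 at 0.74. The 7 include Norad (0.95), a lncRNA that is not such a host. No small nucleolar, spliceosomal or 7SK RNA row passed the filter. A single microRNA row was called, Mir6385, which lies inside Pml on chromosome 9 and stood at 0 in the GFP inputs, where Pml had 33.6 CPM. It fell from 36.6, 47.9 and 44.9 CPM in total RNA to 4.99, 2.54 and 12.5 CPM (−2.60, adjusted p = 0.0199), and lost its call in 4 of the 6 omissions. Its mature sequence is printed to identify it, from RefSeq (GRCm38.p6, chr9:58221155-58221175, plus strand), 5' to 3', with the seed, bases 2 to 8, in capitals. A poly(A)-primed library does not read a mature microRNA, so the counts are of longer RNA from the locus.
mmu-miR-6385: gCAAGGAUgacagagaggaag

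Among the 12 lower rows with the largest change and a mean of at least 20 counts over the 6 libraries, 8 are not annotated as protein-coding. AY036118, an annotated pseudogene of chr17:39848112-39898385 that overlaps the ribosomal RNA row Rn18s-rs5, fell from 1340, 1270 and 1400 CPM to 99.8, 76.3 and 75.3 CPM (−3.99, SE 0.242, adjusted p = 6.88e-10). The groups were far apart, with the smallest adjusted p of the comparison. Cd302, which encodes a C-type lectin receptor, had no count in cytoplasm against 150, 129 and 115 CPM in total RNA, at least 55.6-fold lower against a floor of 3 counts over the group. Its neighbour Marchf7 lies within 5 kb on the other strand and had 79.8 CPM in the GFP inputs, where Cd302 had 2.80. Spon1, the gene of the secreted adhesion protein spondin 1, was at 32.4, 15.3 and 4.18 CPM against 373, 608 and 446 CPM (−4.81, adjusted p = 3.22e-07), but at 0 in the GFP inputs, where its neighbour Rras2 had 272 CPM. Sat1, the spermidine acetyltransferase that starts polyamine breakdown, had 0, 2.54 and 12.5 CPM against 91.4, 68.1 and 74.8 CPM (−3.79, adjusted p = 0.00114), and no gene overlapped it or lay within 5 kb. Spaca6 was lower as well (−4.0). The rest of the 12 were 1700047A11Rik, Gm40309, Gm43292, Gm49309, Gm17110, 6330549D23Rik and Gm26789, from −5.76 to −3.82. These 12 rows stayed lower in all 6 omissions.

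Among splicing regulators the mRNAs called were mostly lower in the cytoplasm. Of 48 tested members 9 (18.8%, against 3.76% of all rows) were lower and 1 was higher, 38 were not called, 35 were negative, and the median was −0.45. These genes encode SR proteins, their kinases and related RNA-binding proteins, and many are known to make transcripts with retained introns. Per library the list's median log2(CPM + 1) was 5.67, 5.43 and 5.89 in cytoplasm and 6.31, 6.22 and 6.39 in total RNA, so the groups did not overlap. Srsf2, an SR splicing factor, was at 294, 310 and 268 CPM against 749, 851 and 723 CPM (−1.41, SE 0.245, adjusted p = 0.00119). Pnisr, a speckle protein with an SR domain, had 0, 22.9 and 16.7 CPM against 126, 103 and 96.5 CPM (−3.01, adjusted p = 0.00479). Every cytoplasmic value of both lay below the total values. Clk1, a kinase of SR proteins, went from 29.2, 49.7 and 51.6 CPM to 9.98, 0 and 0 CPM (−3.67, adjusted p = 0.0212), and Ccnl1, a cyclin of the splicing machinery, from 34.7, 140 and 69.8 to 15, 0 and 8.36 CPM (−3.34, adjusted p = 0.00691). Srsf11 (−2.23), Srsf5 (−2.73), Rbm5 (−2.83), Rbm6 (−2.98) and Rbm25 (−1.24) were also lower. Srsf9 moved the other way, at 97.3, 209 and 85.7 CPM against 31.1, 51.6 and 39.9 CPM (1.67, adjusted p = 0.0369). Clk1 and Rbm5 each have a neighbour more abundant in the GFP inputs, for Clk1 the gene Bzw1 within 5 kb (277 against 28.8 CPM). Among the 44 members with no such neighbour 7 were lower. Omitting each Mkrn3ox library in turn gave 4 to 6 lower members. Srsf2, Srsf11 and Pnisr kept their calls in all 6 omissions, Ccnl1 lost it without total library 2, Clk1 and Srsf5 in 4 of 6, Srsf9 in 5, and Rbm6 and Rbm25 in all 6. Outside the list, and chosen after their values were seen, the splicing gene Srek1 (−2.83) and the kinase gene Cdk13 (−2.62) were lower in all 6 omissions.

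Of 21 tested very long mRNAs, for giant cytoskeletal proteins, ubiquitin ligases and chromatin proteins, 4 were lower (19%, against 3.76% of all rows), none was higher, and 20 of 21 were negative, with a median of −0.85. Plec, which encodes the cytolinker plectin, fell from 322, 206 and 203 CPM to 52.4, 66.2 and 29.3 CPM (−2.31, SE 0.359, adjusted p = 0.000519), with no overlap. Macf1, a microtubule-actin crosslinker, was at 12.5, 15.3 and 4.18 CPM against 78.6, 27.6 and 39.9 CPM (−2.20, adjusted p = 0.024), and Sptbn1, a spectrin, at 34.9, 10.2 and 18.8 CPM against 95, 73.7 and 91.5 CPM (−2.02, adjusted p = 0.0169). Akap9 changed less (−0.95, adjusted p = 0.0369). Plec alone kept its call in all 6 omissions, which gave 1 to 3 lower members. Macf1 lost it in 3, Sptbn1 in 4 and Akap9 in 5. The exception to the negative sign was Map1a (0.59, not called). Over 4508 placed protein-coding rows the median change went from 0.13 in the fifth with the shortest gene span (up to 9.81 kb) to −0.15 in the fifth with the longest (from 79.9 kb). The rank correlation of span and change across these rows was −0.13, a description over genes that share the same libraries.

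Of 28 tested genes of folding and translocation in the endoplasmic reticulum 3 were lower (10.7%, against 3.76% of all rows) and 1 higher, with 22 of 28 negative and a median of −0.38. Canx, the lectin chaperone calnexin, was at 337, 583 and 351 CPM in cytoplasm and 812, 891 and 920 CPM in total RNA (−1.05, SE 0.219, adjusted p = 0.00645). Hyou1, a chaperone of the same compartment, was at 257, 298 and 265 CPM against 466, 462 and 464 CPM, within narrow ranges that did not meet (−0.76, adjusted p = 0.0382). Stt3a, a catalytic subunit of the oligosaccharyltransferase, stood at 9.98, 17.8 and 8.36 CPM against 49.3, 49.7 and 58.2 CPM (−2.12, adjusted p = 0.0183). The higher member was Atf4, which encodes a stress-response transcription factor and no resident of the compartment. Hsp90b1 (−1.82, adjusted p = 0.167), Dnajc3 (−1.75, adjusted p = 0.077) and Calr (−0.99, adjusted p = 0.192) did not pass. The list's median log2(CPM + 1) was 5.26, 5.55 and 5.52 in the cytoplasmic libraries and 5.75, 5.81 and 6.04 in total RNA. Canx lost its call without cytoplasmic library 1 (adjusted p = 0.0522), Stt3a in 3 of 6 omissions and Hyou1 in all 6, and the omissions gave 1 to 3 lower members and no higher one.

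Of 7 tested genes of prohormone processing 2 were lower (28.6%, against 3.76% of all rows). The median was −0.48, and from −0.71 to −0.06 over 14 other settings. The list's median log2(CPM + 1) was 7.24, 5.77 and 6.54 in cytoplasm and 6.10, 6.11 and 7.14 in total RNA, so the groups overlapped. Pam, which catalyses the amidation of GnRH and other peptides, was at 1730, 1790 and 1800 CPM against 2940, 2880 and 2730 CPM (−0.68, SE 0.16, adjusted p = 0.015). The libraries of each group agreed closely and the groups were far apart, yet the call was lost in 5 of 6 omissions (highest adjusted p 0.0684). Cpd, a carboxypeptidase of the secretory pathway, had 150, 53.4 and 92.0 CPM against 243, 215 and 193 CPM (−1.14, adjusted p = 0.0369), and lost its call in 5 of 6. Gnrh1, the hormone precursor gene itself (chr14:67745181-67749440), stood at 160, 145 and 134 CPM in cytoplasm and 62.1, 68.1 and 140 CPM in total RNA. Total library 3 reached the cytoplasmic range, and the log2 fold change of 0.69 (SE 0.443) missed the threshold (adjusted p = 0.443).

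Of 15 tested extracellular matrix genes 2 were lower (13.3%, against 3.76% of all rows), with 11 negative and a median of −0.71. The list's median log2(CPM + 1) was 4.70, 4.86 and 4.92 in cytoplasm and 5.75, 4.74 and 5.47 in total RNA, which overlap. Fn1, fibronectin, fell from 87.7, 62.6 and 51.6 CPM to 9.98, 12.7 and 4.18 CPM (−2.91, adjusted p = 0.00374), and Col4a6, a basement membrane collagen, from 154, 190 and 148 CPM to 44.9, 56.0 and 75.3 CPM (−1.47, adjusted p = 0.0183). Fn1 kept its call in all 6 omissions and Col4a6 in 3. Col4a5, within 5 kb of Col4a6 on the other strand, had 853 CPM in the GFP inputs against 394 for Col4a6. A list of adhesion, guidance and surface receptor families was added after values had been seen, so its count is no independent evidence of a direction. The lists above were chosen with earlier results of these data known, so their counts are no independent evidence either. Of its 42 tested members 9 (21.4%) were lower and none higher, 36 were negative, and the median was −0.76. Cdh11, a cadherin, had 32.4, 66.2 and 41.8 CPM against 185, 142 and 113 CPM (−1.65, SE 0.271, adjusted p = 0.000844). Jag1, a Notch ligand, had 449, 529 and 556 CPM against 1560, 1510 and 1350 CPM (−1.52, adjusted p = 0.00103). Adam10, the protease that sheds Notch and other surface proteins, had 147, 115 and 138 CPM against 422, 379 and 269 CPM (−1.42, adjusted p = 0.00119). In each of the 3 genes the lowest total value was above the highest cytoplasmic value. Efnb2 (−2.73), Nrp1 (−2.80), Cadm1 (−1.39), Sema3c (−1.30), Ncam1 (−1.26) and Itgb1 (−1.04), an ephrin ligand, a semaphorin receptor, 2 adhesion proteins of the immunoglobulin family, a semaphorin and an integrin, were lower as well. Omitting each Mkrn3ox library in turn gave 5 to 10 lower members. Cdh11, Jag1, Adam10 and Efnb2 kept their calls in all 6, while Sema3c and Cadm1 lost them without total library 1, Itgb1 without cytoplasmic library 1 or total library 1, Ncam1 in 3 and Nrp1 in 4. Outside this list, 2 genes were chosen after their values were seen, so they are no added evidence of a direction. Tfrc, the transferrin receptor (−2.14, adjusted p = 0.00179), and Slc5a3, the myo-inositol transporter (−2.20, adjusted p = 0.000123), were lower in all 6 omissions. As a family, 69 solute carrier genes had 3 lower, 1 higher and a median of −0.27. The 52 tetraspanin and Tmem genes had 2 lower, 1 higher and a median of −0.02 that changed sign in 4 of 14 settings.

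**Figure D3:**
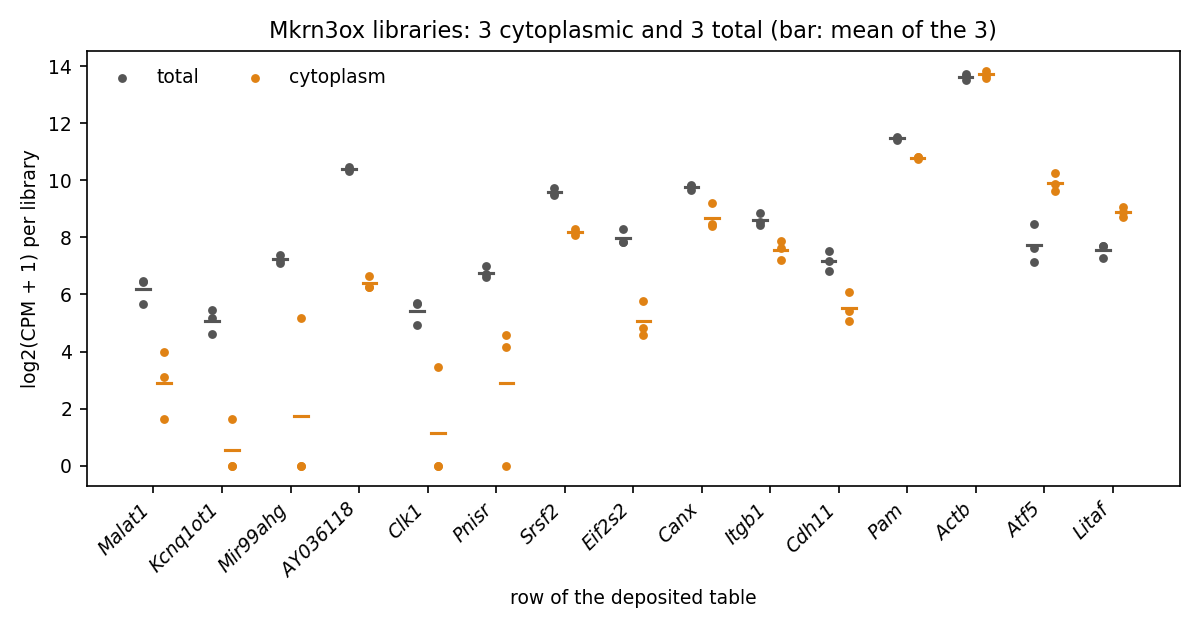
Level of 15 named rows as log2(CPM + 1) in each Mkrn3ox library, with total RNA in grey, cytoplasm in orange and a bar at the mean of the 3 libraries. For the 12 rows from Malat1 to Pam the orange dots lie below the grey dots, for Actb they intermix, and for Atf5 and Litaf they lie above.

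In the libraries of wt cells the medians of the nuclear lncRNA, splicing and long groups were negative as in Mkrn3ox cells, and those of the endoplasmic reticulum, prohormone and surface groups were above 0. The wt medians were −4.17 for nuclear lncRNAs, −0.66 for splicing regulators and −1.05 for very long mRNAs. They were 0.18 for the endoplasmic reticulum list, 0.50 for prohormone processing, −0.10 for extracellular matrix and 0.05 for the surface families. Cholesterol synthesis and the solute carrier family, with negative Mkrn3ox medians (−0.33 and −0.27), also had wt medians above 0 (0.31 and 0.03). The test of the difference was run gene by gene, with all 12 libraries in 1 fit, and passed in 11 of 5033 rows (0.219%), 4 with a higher ratio in Mkrn3ox cells (0.0795%) and 7 with a lower one (0.139%). Pam and Cdh11 were the members of these lists that passed it with a lower ratio in Mkrn3ox cells. For Pam the wt libraries gave 0.42 and the difference was −1.10 (SE 0.227, adjusted p = 0.0367). Leaving out a library gave 0 to 1 such members of the prohormone list, so Pam lost this call in at least 1 omission. For Cdh11 they gave 0.50 and the difference was −2.14 (SE 0.35, adjusted p = 0.00434). Sema3c (difference −1.66, adjusted p = 0.0588), Efnb2 (−2.88, adjusted p = 0.0921) and Cpd (−1.74, adjusted p = 0.0993) came nearest below them, and Canx (−1.12, adjusted p = 0.153) did not pass. As a description, the median of the difference was −0.96 over the 28 endoplasmic reticulum genes, with 22 negative, and −0.59 over the 42 surface genes, with 33 negative, beside 0.02 over all rows. It was negative in other lists as well, at −0.69 for cholesterol synthesis (11 of 13 negative), −0.56 for mitochondrially encoded mRNAs (7 of 7), −0.57 for mitochondrial rRNAs and tRNAs (6 of 7) and −0.48 for immediate early genes (7 of 10), so it was not particular to the secretory and surface lists. In the wt libraries the endoplasmic reticulum list had a median log2(CPM + 1) of 6.30, 5.94 and 6.22 in cytoplasm and 5.97, 6.23 and 6.01 in total RNA, which overlap. The surface list had 5.68, 5.73 and 5.90 against 5.21, 5.63 and 5.86, which overlap as well. The surface list was chosen with its Mkrn3ox values known, so the sign of its difference is no evidence of a contrast between the lines. The other lists, chosen with earlier results of these data known, give no independent evidence of one. The mitochondrial share of all counts differed between the lines as well, and its part in this contrast was not tested. It was 11.8 ± 1.23% in Mkrn3ox cytoplasm against 9.96 ± 0.319% in total RNA, and 22.1 ± 2.37% against 16 ± 1.21% in wt.

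**Figure D4:**
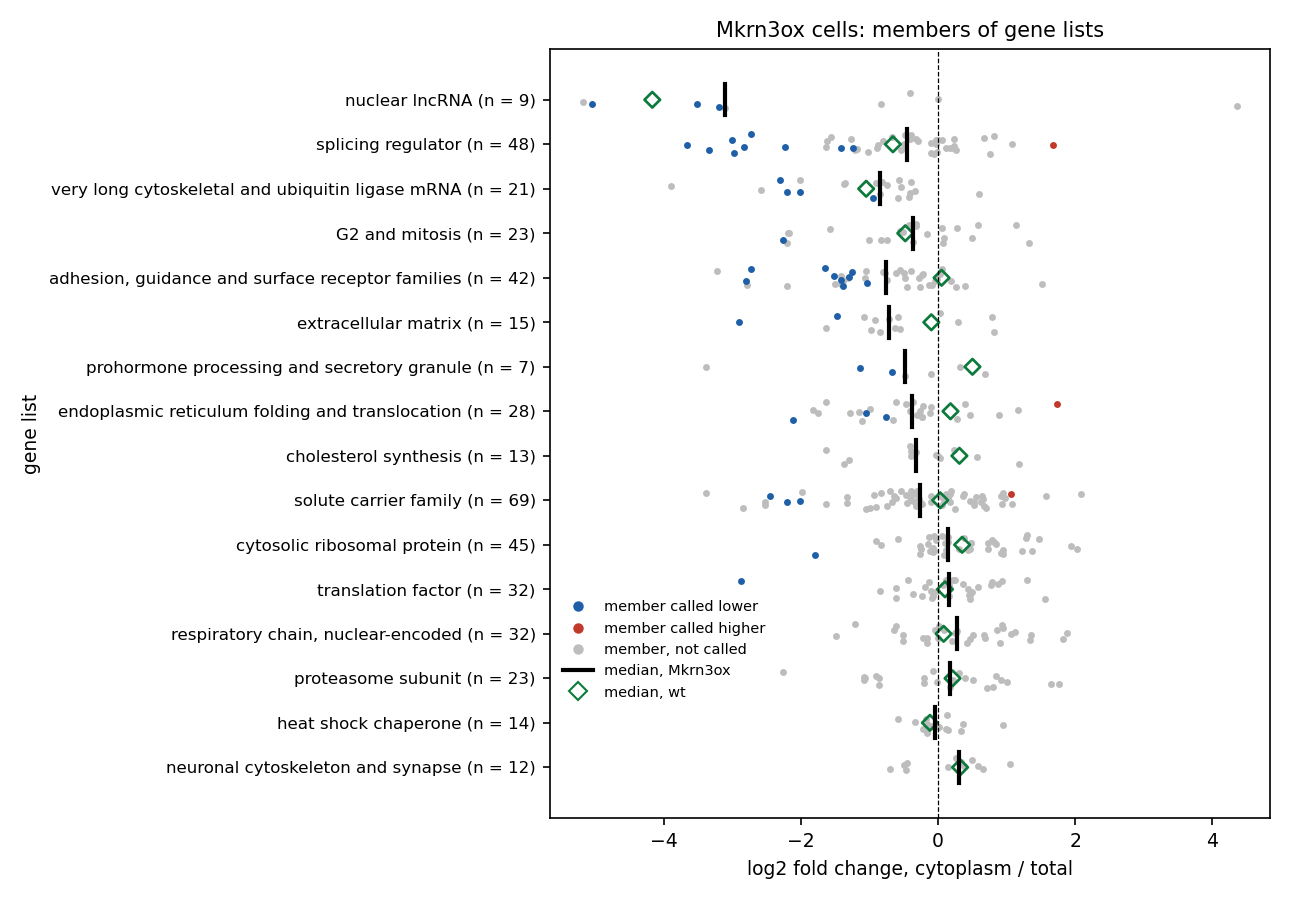
Log2 fold change of cytoplasmic over total RNA for the tested members of 16 gene lists in Mkrn3ox cells, with called members in blue or red, the list's Mkrn3ox median as a black bar and its wt median as an open green diamond. Bar and diamond lie on the same side of 0 for nuclear lncRNA, splicing and very long mRNAs, among others. They lie on opposite sides for the endoplasmic reticulum, prohormone, surface, cholesterol synthesis and solute carrier lists.

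Few housekeeping mRNAs of the cytosol and the mitochondrion were called, as far as this depth could show. Over all rows only 3.76% were lower and 0.775% higher, so lists of this size would hold few calls at those shares. Of 45 cytosolic ribosomal protein genes none was higher and 1 was lower (2.22%), with a median of 0.14. The lower one was Rps24, at 49.9, 45.8 and 52.3 CPM against 230, 118 and 168 CPM (−1.80, adjusted p = 0.0157), a call lost in 3 of 6 omissions. Of 32 translation factor genes 1 was lower (3.12%), Eif2s2, the beta subunit of the factor that brings initiator tRNA. Eif2s2 was at 27.4, 53.4 and 23 CPM against 225, 227 and 309 CPM (−2.88, SE 0.347, adjusted p = 3e-05). Its change in wt was of the same size (−2.86), and its neighbour Raly, within 5 kb on the other strand, had 588 CPM in the GFP inputs against 114 for Eif2s2. Of 12 mitochondrial ribosomal protein genes 1 was lower (8.33%), with a median of 0.08. It was Mrpl49 (−2.49, adjusted p = 0.0322), which lost its call in 5 of 6 omissions and has a neighbour more abundant in the GFP inputs. No member was called among 32 nuclear-encoded respiratory chain genes (median 0.27), 23 proteasome subunits (0.18), 11 aminoacyl-tRNA synthetases (0.50), 14 heat shock chaperones (−0.05) and 9 glycolysis genes (−0.18). Among other lists, none was called in 12 neuronal cytoskeleton and synapse genes (0.30) or 13 cholesterol synthesis genes. The cholesterol list had a median of −0.33, with 9 negative, near the −0.38 of the endoplasmic reticulum list. The median of the heat shock list changed sign in 4 of 14 settings and that of the proteasome list in 1. The 23 genes of mitosis had a median of −0.36, with 15 negative. Their 1 lower member was the proliferation marker Mki67, at 9.98, 20.4 and 31.4 CPM against 130, 107 and 66.5 CPM (−2.26, adjusted p = 0.00859, lost without cytoplasmic library 1). In simulated data of this design 45.5% of 4-fold and 5.97% of 2-fold changes were called, so a missing call does not show that a gene was evenly distributed.

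Mitochondrially encoded RNA served as RNA that never passes through the nucleus. None of the 7 tested mitochondrial mRNAs was called (median 0.04, with another sign in 4 of 14 settings), from mt-Nd2 at −0.58 to mt-Nd1 at 0.47. The row mt-Nd6 took 9.80%, 12.1% and 10.9% of all counts in cytoplasm and 9.18%, 9.43% and 8.79% in total RNA, with no overlap but a log2 fold change of 0.25 that did not pass (adjusted p = 0.257). Of 7 tested mitochondrial rRNAs and tRNAs 1 was higher and none lower, but 5 were negative and the median was −0.70, with mt-Ti at −1.56, mt-Rnr2 at −0.73, and mt-Tc and mt-Tq at −0.70. The higher row was the tRNA row mt-Tp (1020, 926 and 953 CPM against 424, 584 and 600 CPM, 0.85, adjusted p = 0.0174, lost in 3 of 6 omissions). It had 1.24 CPM in the GFP inputs against a mean of 536 CPM in Mkrn3ox total RNA, so what it measures is in doubt. CEL-seq2 reads polyadenylated RNA, and whether these counts are of the mature tRNA was not tested.

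The 39 rows higher in the cytoplasm held no list with more than 1 member. Atf5, a transcription factor of the integrated stress response, was at 1220, 939 and 786 CPM against 139, 354 and 195 CPM (2.10, SE 0.437, adjusted p = 0.0064). Atf4, an upstream factor of the same response whose mRNA is under translational control, was at 107, 122 and 87.8 CPM against 25.6, 36.8 and 31.6 CPM (1.74, adjusted p = 0.0232). For both, every cytoplasmic library exceeded every total library. Ddit3, another gene of the same response, showed 699 against 816 CPM and was not called (−0.22). The Ddit3 row has a neighbour that was more abundant in the GFP inputs. Ftl1, the ferritin light chain, had 112, 379 and 186 CPM against 43.9, 49.7 and 29.9 CPM (2.45, adjusted p = 0.0113), and Litaf, a lysosomal membrane protein gene, 531, 417 and 475 CPM against 154, 208 and 206 CPM (1.32, SE 0.261, adjusted p = 0.00385). The largest change by the naming rule was 0610009L18Rik, a lncRNA row with 59.9, 91.6 and 123 CPM against 1.83, 11 and 9.98 CPM (3.54, adjusted p = 0.00958), which lies within 5 kb of the actin gene Actg1 on the other strand. Tmem158 (1.82), Pard3b (1.82), Mllt6 (1.70), Arl15 (1.57), Acot2 (1.54) and the linker histone gene H1f0 (1.35) completed the rule's rows. Chosen after their values were seen, the cell cycle inhibitor Cdkn1b (1330, 1320 and 1700 CPM against 888, 873 and 873 CPM, 0.72, adjusted p = 0.0202) and the transcription factor Sox11 (157, 249 and 146 CPM against 85.9, 64.5 and 79.8 CPM, 1.26, adjusted p = 0.0139) were higher too. Atf5 and Litaf kept their calls in all 6 omissions. Acot2 lost its call in 1, Ftl1, Sox11 and 0610009L18Rik in 2, Tmem158, Pard3b and Mllt6 in 3, Cdkn1b in 4, Arl15 and H1f0 in 5, and Atf4 in all 6.

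Of the most abundant rows, Actb was even (14700, 12400 and 13100 CPM against 13500, 11800 and 12800 CPM, 0.08, adjusted p = 0.839), and small shifts passed at great depth. Grtp1 was lower (31900, 32800 and 35900 CPM against 45900, 44400 and 48800 CPM, −0.47, adjusted p = 0.0192), as was Ulk4 (−0.52), while 1700037C18Rik was higher (0.53). Each has a neighbour within 5 kb on the other strand that was more abundant in the GFP inputs, Lamp1 beside Grtp1 (1060 against 10.2 CPM), Ctnnb1 beside Ulk4 (606 against 7.23 CPM) and Naa60 beside 1700037C18Rik. Grtp1 lost its call in 4 of 6 omissions, Ulk4 in all 6 and 1700037C18Rik in 3.

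Genes tied to makorins were not called. Mkrn2 was at 125, 102 and 144 CPM against 166, 147 and 180 CPM, ranges that lie close without overlap (−0.41, adjusted p = 0.463). The gene of the cytoplasmic poly(A)-binding protein, Pabpc1, was at 205, 117 and 102 CPM against 106, 77.3 and 131 CPM (0.42, adjusted p = 0.593). Ptn, the growth factor pleiotrophin, showed 501, 687 and 562 CPM against 556, 661 and 614 CPM and was even between the fractions (−0.06, adjusted p = 0.924). Mkrn1, Pabpc4 and Mkrn3 had too few counts to be tested and Nptx1 had none.

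The rows called in Mkrn3ox cells were then looked up in the wt libraries, which share no sample with them. Both lines entered the same fit, with 1 filter and a spread per row fitted over both, so their calls are not independent. In wt 190 of 5033 rows (3.78%) were called. Of the 189 lower rows 160 (84.7%) had a negative change in wt, against 49.0% of all tested rows, and 91 were called lower there, 48.1% of the Mkrn3ox calls and 57.2% of the 159 wt calls (3.16% of rows). Of the 72 rows of types other than protein-coding 54 (75.0%) were called in wt, with a median of −4.32 in Mkrn3ox and −3.81 in wt cells. Of the 117 protein-coding rows 37 (31.6%) were called in wt, with medians of −2.22 and −1.05. Of the 39 higher rows 32 (82.1%, against 50.9% of all rows) were positive in wt and 3 were called there (7.69% of the Mkrn3ox calls, 9.68% of the 31 wt calls, which are 0.616% of rows). Their median was 1.35 in Mkrn3ox and 0.35 in wt cells. Rows chosen for a large change in one set of libraries tend to show a smaller one in another, so the smaller wt medians alone do not show a difference between the lines.

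**Figure D5:**
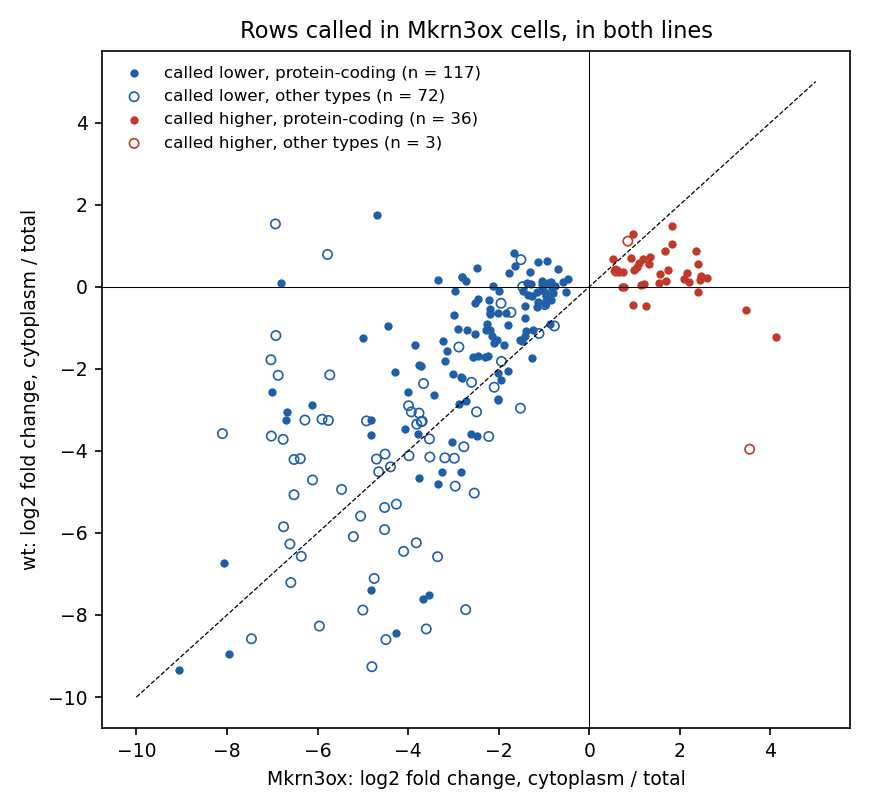
Log2 fold change of cytoplasmic over total RNA in wt cells (y axis) against Mkrn3ox cells (x axis) for the 228 rows called in Mkrn3ox cells, with filled dots for protein-coding rows, open dots for other types and the dashed line at equal change. Open blue dots spread around the dashed line down to −9, while filled blue dots with changes above −2 in Mkrn3ox cells cluster near 0 in wt cells.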

How the data were processed

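The submitters' processing notes name cutadapt, STAR and HTSeq and the build mm10, with no versions. The sources used here do not give the annotation, the strand setting or whether molecular identifiers were collapsed. The deposited values are raw counts for 57010 gene rows, of which 1606 have no gene type, and all were used as deposited. The 12 fractionation libraries (4 groups of 3, from the labels) entered 1 edgeR 4.0.16 fit in R 4.3.3 (limma 3.58.1) with filterByExpr by group, TMM scaling, no covariate and the two-sided quasi-likelihood test. Contrasts were cytoplasm against total RNA in Mkrn3ox, the same in wt, and their difference. P-values were adjusted by Benjamini-Hochberg over 5033 rows, with a call under 0.05. The Mkrn3ox libraries held 374386 to 589792 counts, and the biological coefficient of variation was 0.384. A standard error (SE) is the absolute log2 fold change divided by the square root of the test's F statistic. It includes the fitted spread between libraries. Floors cover counting error only. Replicate numbers did not pair the libraries.

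The members and lists were chosen with earlier results of these data known. Of 36 gene lists 5 were added after values were seen. Lists are described by counts and medians, with no set test. Named rows are the 12 largest calls each way with a mean of 20 counts over the 6 Mkrn3ox libraries, up to 4 called members per list, a preset list, the 4 largest calls each way in the difference and the 6 most abundant rows. Others are named as chosen afterwards. A row at 0 in a group has a floor of 3 counts over that group. Positions came from RefSeq GRCm38.p6 for 4690 tested rows, and a neighbour is a gene overlapping a row or within 5 kb. Spliced length, GC content and protein hydropathy were planned but not used here. Alternatives were DESeq2 1.42.0 size factors, library size, no filter, a mean of 20 counts, the DESeq2 test, a replicate block, no mt-Nd6 row, Mkrn3ox libraries alone, rows with no more abundant neighbour and each library left out. The fit was tested on simulated data with 200 changed rows, where it recovered 1.49%, 5.97% and 45.5% of 1.5-, 2- and 4-fold changes. Tables and figures used Python 3.11.15 with pandas 2.3.3, numpy 2.4.6, scipy 1.17.1 and matplotlib 3.10.9.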

Additional observations from a re-analysis of the deposited data

Results flagged for a closer look

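The cytoplasm-to-total ratio differed between Mkrn3ox and wt cells in 11 rows by the test of the difference itself (edgeR's quasi-likelihood test with Benjamini-Hochberg adjustment). In 6 of them the row was called lower in Mkrn3ox cytoplasm and was not called in wt. For Cdh11 (672 against 476 CPM) and Pam (1580 against 1180 CPM) the wt mean was higher in the cytoplasm. The same held for Iah1 (231 against 185 CPM), Mettl7b (2080 against 1940 CPM) and St3gal6 (1730 against 1650 CPM). For Ap3m1 the wt mean was lower there (1500 against 1630 CPM). Pam lost its call of a difference in at least 1 omission of a library. Cdh11 had 13, 26 and 20 counts in Mkrn3ox cytoplasm and 101, 77 and 68 in total RNA (difference −2.14, adjusted p = 0.00434). Ap3m1, an adaptor complex subunit, went from 1500 to 376 CPM (difference −1.88, adjusted p = 0.000497), Iah1 from 304 to 88.6 CPM (−2.10, adjusted p = 0.00789), Mettl7b from 2180 to 840 CPM (−1.48, adjusted p = 0.00454), St3gal6 from 2700 to 1110 CPM (−1.35, adjusted p = 0.011) and Pam from 2850 to 1780 CPM (−1.10, adjusted p = 0.0367). Ap3m1, Iah1, Mettl7b and St3gal6 each overlap a gene that was more abundant in the GFP inputs (Vcl at 1280, Adam17 at 130, Itga7 at 337 and Dcbld2 at 267 CPM), and Mettl7b and St3gal6 themselves had 0 there.

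Ptn differed through wt, where it rose in the cytoplasm from 4.09 to 53.3 CPM, while Mkrn3ox cells held 584 and 610 CPM (difference −3.66, adjusted p = 0.000497). Tsix was at 10.3 and 13.8 CPM in Mkrn3ox cytoplasm and total RNA against 108 and 2990 CPM in wt (4.39, adjusted p = 0.00379). Xist had 0 to 4 counts in each Mkrn3ox library and 139 to 159 in wt total RNA (9.93, adjusted p = 0.00379), and Timp4 0 to 5 counts against 52 to 82 (9.01, adjusted p = 0.00454). With so few Mkrn3ox counts the fitted differences of the last pair depend on the prior count and their sizes are not measured. Perm1 was at 34.7 and 53.9 CPM in Mkrn3ox cells and at 0.708 and 53.9 CPM in wt (5.05, adjusted p = 0.0329). Tsix, Timp4 and Perm1 each have a neighbour that was more abundant in the GFP inputs. Xist had 57.3 CPM there against 0.266 for Tsix, Syn2 118 against 0.29 for Timp4, and Isg15 21.7 against 0.351 for Perm1. Ptn had 0 there. Whether these rows hold reads of their neighbours was not tested.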

How the results depend on the processing

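Against 39 higher and 189 lower Mkrn3ox rows, the DESeq2 test called 74 higher and 244 lower, the Mkrn3ox libraries alone 94 and 202, and rows with no more abundant neighbour held 31 and 67. Leaving out each Mkrn3ox library gave 7 to 23 higher and 117 to 136 lower. With the replicate block 25 were higher and 142 lower. Same-numbered libraries did not deviate together (r −0.0183, 0.00617 and 0.018), so the numbers name libraries and do not pair them. The wt rows (31 higher, 159 lower) became 16 higher with library size and 52 with the DESeq2 test, and 17 to 50 higher and 106 to 133 lower when each wt library was left out (50 without total library 1). The rows that differed between lines (4 higher, 7 lower) became 8 higher with library size, 7 higher with a mean of 20 counts, 18 higher and 25 lower without a filter, and 19 and 31 with the DESeq2 test. Leaving out libraries gave 3 to 12 higher and 5 to 23 lower, with 12 and 23 without wt total library 1. The cause of these changes was not tested. A filter at a mean of 20 counts left 69.6% of Mkrn3ox calls lower, against 82.9%. Scaling by DESeq2 size factors or library size left the median of all rows at −0.01 and 0.01. No named row that was called changed sign. Medians near 0 changed sign in 4 of 14 settings for mitochondrial mRNA, mitochondrial ribosomal, Zfp, heat shock and tetraspanin and Tmem lists, in 3 for metabolic enzymes, in 2 for snoRNA hosts and GnRH markers, and in 1 for proteasome, immediate early, clock, stress granule and makorin lists. At this depth most 2-fold changes were below detection.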
